A study of Sus scrofa with 12 samples.

Results

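The genes described here are those for potassium channels (symbols beginning KCN), voltage-gated calcium channels (CACN) and the TRPC, TRPM and TRPV cation channels. Their RNA was sequenced in cultures of smooth muscle from the coronary artery of pigs (Sus scrofa). A gene entered when its symbol had one of these beginnings and its row held at least 10 counts in 3 or more of the 12 libraries. Of 127 rows with such a symbol, 55 entered: 33 of 83 KCN rows, 11 of 24 CACN rows and 11 of 20 TRP rows. The whole count table has 21153 genes. The set holds 6 inward rectifier, 3 calcium-activated, 10 voltage-gated and 4 two-pore-domain potassium channel genes, with 10 accessory subunit genes. Beside these stand 4 pore and 7 auxiliary subunit genes of calcium channels and 4 TRPC, 4 TRPM and 2 TRPV genes. These roles were assigned by symbol, and what a subunit binds in these cells was not tested. The minimum was reached in all 12 libraries by 37 of the 55. TRPC4AP entered by its symbol alone, since it encodes a protein that binds a TRPC channel and is no channel itself.

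Potassium channels let potassium leave the cell, which holds the membrane of a smooth muscle cell at a negative voltage and keeps voltage-gated calcium channels shut. When the membrane depolarizes, L-type and T-type calcium channels open and calcium enters, which drives contraction and also signals to the nucleus. TRP channels are cation channels that open on lipid messengers, calcium, heat or stretch and add a further route of cation entry. Smooth muscle that leaves the contractile state and proliferates is known to change its set of these channels, for example towards the intermediate-conductance calcium-activated potassium channel encoded by KCNN4.

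All cells were primary cultures between passages 6 and 11, labelled as differentiated/contractile, and were kept in 10% fetal calf serum, the controls included. They received for 4 h either nothing more (control), PDGF-BB at 30 ng/ml, S100A4 at 1 µg/ml, or both proteins together (PDGF-BB+S100A4). PDGF-BB is a platelet-derived growth factor that drives smooth muscle proliferation and migration, and S100A4 is a small calcium-binding protein that cells can also release. The design text spells the protein oS100A4 and names 3 animals as the source of the cells, with 3 libraries per group, but no label ties a library to an animal.

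Library totals ran from 21455021 to 32448438 counts. Levels are given as CPM, counts scaled to a library size that edgeR's TMM method adjusted. CPM values carry no correction for gene length, and levels of different genes are not compared. All 9 smooth muscle markers on the list used were present, with a summed level of 9744.0 to 25669.3 CPM over the 12 libraries. The 3 T cell markers were at 0 throughout, and the 4 endothelial markers found summed to 19.1 to 59.0 CPM. The 5 macrophage markers summed to 7.25 to 11.5 CPM. Of these, 3 had at least 10 counts in 3 or more libraries, while PTPRC was at 0 throughout. Fibroblast markers, collagen genes among them, summed to 37160.5 to 62267.6 CPM.

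Libraries with the same replicate number resembled each other across the treatments. The 4 libraries numbered 2 stood apart: their smooth muscle markers summed to 10279.1 CPM on average, against 21596.6 and 23009.2 CPM for numbers 1 and 3, and their endothelial markers to 56.0 CPM against 19.8 and 36.1. Pericyte markers summed to 360.0 CPM on average for number 2 and to 1417.0 and 1679.7 CPM for the others. Fibroblast markers were also lowest in number 2, at 38905.5 CPM on average against 59613.8 and 52830.9 CPM for numbers 1 and 3. So were cardiomyocyte markers, at 118.0 CPM against 169.0 and 179.0 CPM. In each marker list these ranges overlapped between the treatment groups. In bulk RNA, fewer cells of a type and less RNA per cell cannot be told apart.

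Several channel genes differed widely between replicate numbers. In control, replicate 2 was at least 4-fold above the mean of replicates 1 and 3 for 5 genes: TRPC4 (33.3-fold), KCNN4 (11.9-fold), KCNN3 (8.45-fold), CACNA1D (5.06-fold) and TRPM2 (4.86-fold). For 3 genes it lay far below that mean, with ratios of 0.104 for TRPV4, 0.164 for KCNMB1 and 0.206 for the T-type calcium channel gene CACNA1H. CACNA1H had 126, 25.5 and 122 CPM in the 3 controls and 121, 19.6 and 100.0 CPM with both proteins, so the low library was number 2 under either condition. The part of cell composition in these differences was not tested.

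**Figure D1:**
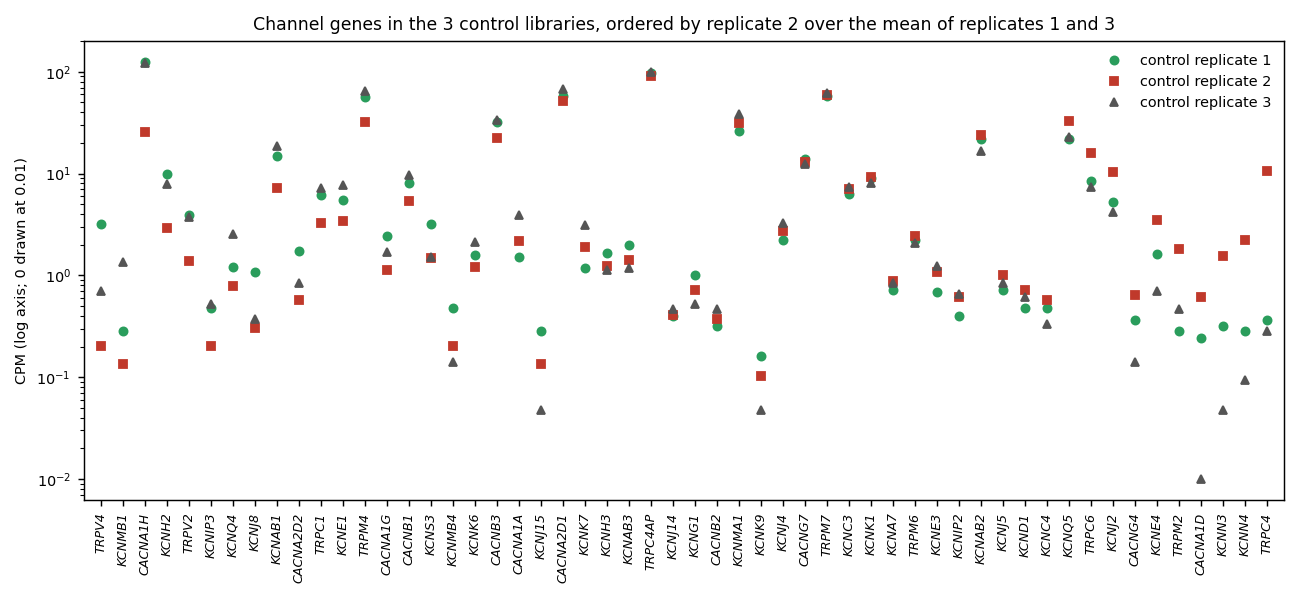
Level (CPM, log axis) of channel genes in the 3 control libraries, ordered by the ratio of replicate 2 to the mean of replicates 1 and 3. TRPV4 lies at the left end with a ratio of 0.104 and TRPC4 at the right end with 33.3. Points drawn at 0.01 stand for 0 counts.

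Each comparison was therefore tested in edgeR's quasi-likelihood test both on the groups alone and with the replicate number as a block, which compares libraries within a number. Adjusted p-values are Benjamini-Hochberg values over all 12444 genes tested, with a threshold of 0.05, and log2 changes are given ± SE with n = 3 libraries per group. Of the 55 channel genes, 54 passed edgeR's filter on low counts and KCNK9 did not.

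With PDGF-BB, 2 channel genes were higher and 2 lower than in control on the groups alone, or 7.41% of the 54, while 14.7% of all genes tested passed. With the block, 9 were higher and 15 lower, or 44.4%, against 48.8% of all genes; by direction, 16.7% of the channel genes were higher and 27.8% lower, against 24.3% and 24.5% of all genes. S100A4 alone gave 1 higher and none lower (1.85%, background 0.563%; 1 gene had an unadjusted p under 0.05, and DESeq2 also called 1), and 3 higher and 2 lower with the block (9.26%, background 10.7%). Both proteins together gave 3 higher and 3 lower (6 of 54, background 22.0%), and 10 higher and 18 lower with the block (51.9%, background 56.1%; by direction 18.5% and 33.3%, background 27.5% and 28.6%). In the PDGF-BB and combined comparisons the share of channel genes lay below or near that of all genes. Groups without overlap were found with PDGF-BB for 8 channel genes (14.8%, background 29.8%), with S100A4 for 3 (5.56%, background 9.72%) and with both for 15 (27.8%, background 35.6%). The median log2 change of the channel genes was −0.09 with PDGF-BB, −0.05 with S100A4 and −0.14 with both, against −0.02, −0.02 and −0.03 over all genes. The 3 comparisons share the control libraries.

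Not every block call held when a replicate number was left out. With PDGF-BB, 11 of the 24 held without each number in turn, with KCNJ14, KCNN3, KCNN4 and TRPC6 among the higher, and CACNA1H, KCNE1, KCNE4, KCNJ2, TRPM6 and TRPV2 among the lower. With both proteins, 12 of 28 held, with KCNJ14, KCNJ5, KCNN3, KCNN4 and TRPC6 among the higher, and KCNE1, KCNE4, KCNH2, TRPM4, TRPM7 and TRPV2 among the lower. With S100A4, 2 of 5 held, KCNJ5 and TRPC6.

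**Figure D2:**
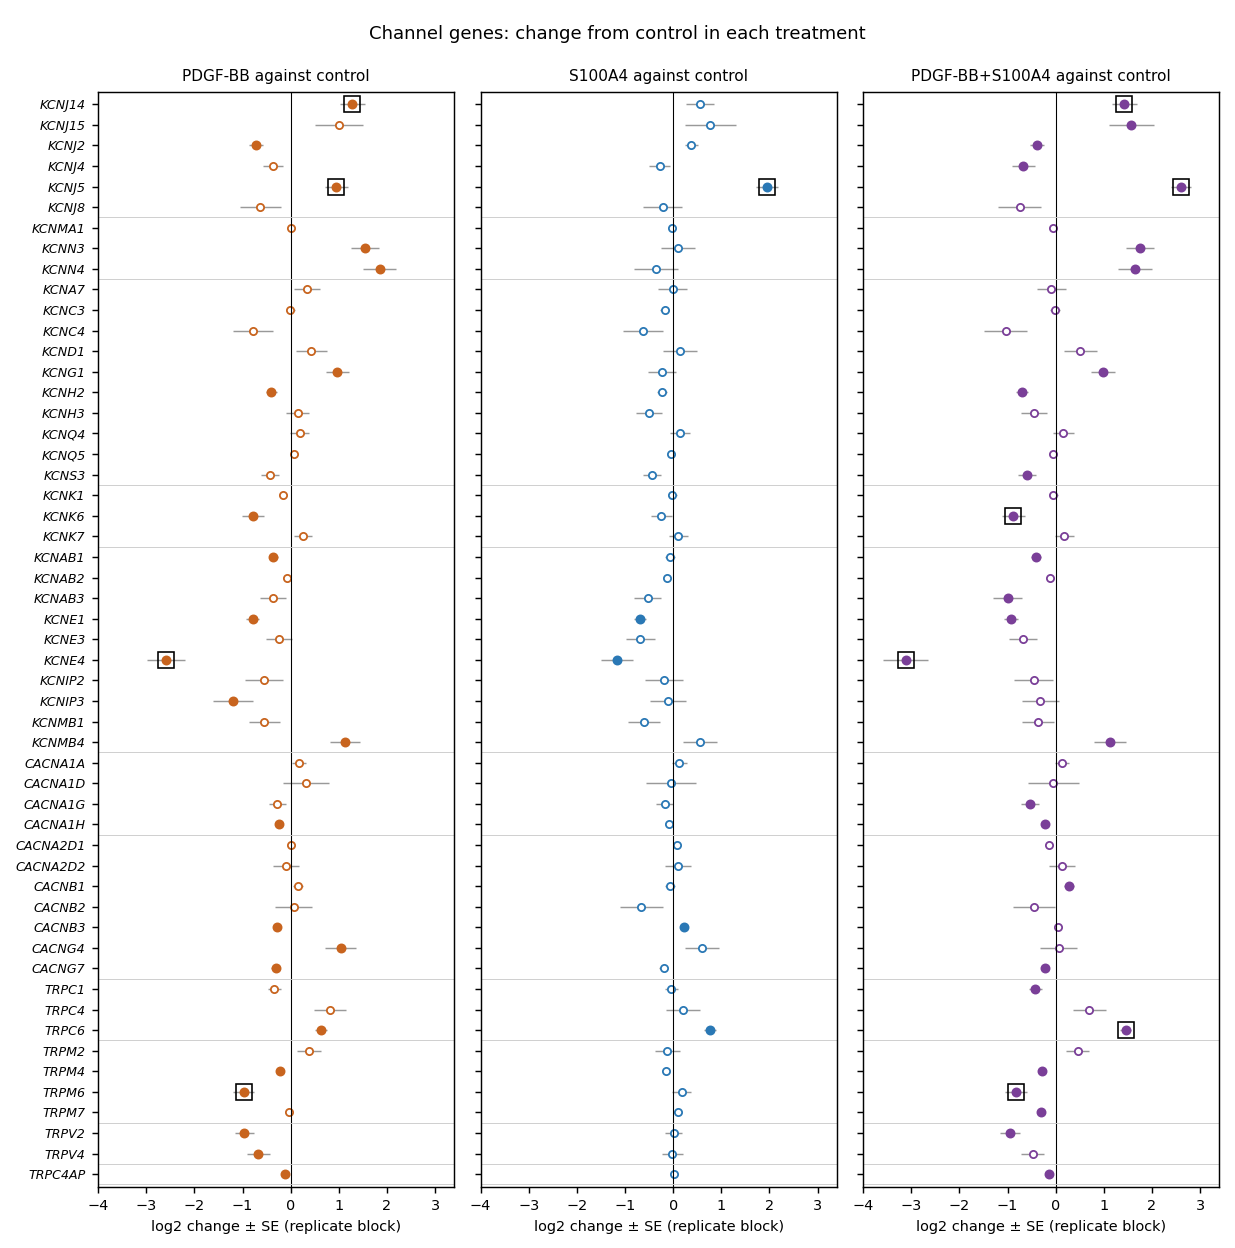
Log2 change from control ± SE in the fit with the replicate block for channel genes tested, in PDGF-BB, S100A4 and PDGF-BB+S100A4. Grey lines separate the roles, filled points passed the threshold with the block, open points did not, and squares mark genes that also passed on the groups alone; KCNJ5 lies farthest right with S100A4 (1.95) and with both proteins (2.6), and KCNE4 farthest left with PDGF-BB (−2.59) and both proteins (−3.12).

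Among the inward rectifiers, which pass potassium near the resting voltage, KCNJ5 rose with every treatment. KCNJ5 (ENSSSCG00000021573; Sscrofa11.1 chromosome 9, 55836777 to 55861288) encodes a potassium channel subunit that G protein beta-gamma subunits open. Its level was 0.724, 1.02 and 0.849 CPM in control replicates 1 to 3, 1.94, 1.5 and 1.74 CPM with PDGF-BB, 3.87, 2.74 and 3.74 CPM with S100A4, and 5.26, 3.93 and 7.2 CPM with both. The 4 groups stood in that order, and none overlapped the next. The rise was 1.99-fold with PDGF-BB (log2 0.99 ± 0.26, adjusted p = 0.028), 3.97-fold with S100A4 (1.99 ± 0.26, adjusted p = 0.0061) and 6.28-fold with both (2.65 ± 0.26, adjusted p = 0.00012).

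KCNJ5 was the only channel gene to pass with S100A4 alone on the groups alone, and it passed with the block as well (1.95 ± 0.22, adjusted p = 4.2e-05). On the groups alone this S100A4 call was lost when only the groups compared were fitted (1.99, adjusted p = 0.071). It was also lost there without replicate number 1 (1.8, adjusted p = 0.59) or 3 (1.91, 0.33). Adding S100A4 to PDGF-BB raised it further, by 1.66 ± 0.25 on the log2 scale (adjusted p = 0.027; 1.65 ± 0.18 and 3.6e-05 with the block). That call on the groups alone was lost without any one of the PDGF-BB libraries, and without control replicate 3 or replicate 1 or 3 of the S100A4 or combined group (adjusted p 0.057 to 0.16). It was also lost with only the groups compared (adjusted p = 0.31) and without replicate number 1 (1.77) or 3 (1.42, adjusted p = 0.99). Adding PDGF-BB to S100A4 raised KCNJ5 with the block only (0.65 ± 0.16, adjusted p = 0.0038; 0.1 on the groups alone), a call lost without replicate number 3 (0.48, adjusted p = 0.087). The call for PDGF-BB on the groups alone was lost without control replicate 1 (0.88, adjusted p = 0.11), control replicate 3 (0.98, 0.084), PDGF-BB replicate 1 (0.9, 0.09) or PDGF-BB replicate 3 (0.99, 0.068). It was lost there as well with only the groups compared (adjusted p = 0.062) and without replicate number 1 (0.4) or 3 (0.18). With the block it was lost without replicate number 1 (0.74, adjusted p = 0.085).

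KCNJ14 (ENSSSCG00000003135; chromosome 6, 53861755 to 53866765), another inward rectifier, rose with PDGF-BB. Control libraries had 0.402, 0.407 and 0.472 CPM and PDGF-BB libraries 1.09, 0.815 and 1.26 CPM, while S100A4 gave 0.623, 0.618 and 0.649 CPM and both proteins 1.3, 0.794 and 1.42 CPM. All treated libraries lay above all controls. The rise was 2.46-fold with PDGF-BB (1.3 ± 0.28, adjusted p = 0.011) and 2.73-fold with both (1.45 ± 0.28, adjusted p = 0.0046), each kept when any one library was left out. On the groups alone the PDGF-BB call was lost without replicate number 1 (adjusted p = 0.25) or 3 (0.15). The call with both was lost there without number 1 (adjusted p = 0.16) or 3 (0.087). S100A4 alone did not pass with or without the block. The counts behind these values were 10 to 39 reads per library.

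KCNJ2, which encodes the classical strong inward rectifier of vascular muscle, went the other way. Its level was 5.31, 10.4 and 4.2 CPM in control, 3.44, 5.54 and 2.97 CPM with PDGF-BB, 5.87, 14.8 and 5.69 CPM with S100A4, and 3.04, 9.53 and 3.06 CPM with both. Within each replicate number the PDGF-BB library lay below its control, while the groups overlapped, with number 2 the highest in each. It fell with PDGF-BB only with the block (−0.72 ± 0.15, adjusted p = 0.0014; −0.74 ± 0.57 and 0.48 on the groups alone). With both the change was also lower in each number (−0.39 ± 0.15, adjusted p = 0.041 with the block).

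The other inward rectifiers had fewer calls. KCNJ8, the pore of the vascular ATP-sensitive potassium channel, had 1.09, 0.305 and 0.377 CPM in control, 0.769, 0.293 and 0.0967 CPM with PDGF-BB, 0.801, 0.309 and 0.382 CPM with S100A4, and 0.391, 0.159 and 0.474 CPM with both. Its groups overlapped, and it did not pass in any comparison with control with all libraries. Without replicate number 3 the block fit called KCNJ8 lower with both proteins (−1.3 ± 0.40, adjusted p = 0.026). KCNJ15 had 0.282, 0.136 and 0.0472 CPM in control, 0.445, 0.163 and 0.355 CPM with PDGF-BB, 0.311, 0.309 and 0.191 CPM with S100A4, and 0.565, 0.516 and 0.345 CPM with both. These are low levels, and the combined libraries lay above all controls, with a rise that passed with the block (1.57 ± 0.47, adjusted p = 0.011) and not on the groups alone (adjusted p = 0.072). KCNJ4, a strong rectifier like KCNJ2, had 2.25, 2.71 and 3.25 CPM in control, 2.47, 2.15 and 1.81 CPM with PDGF-BB, 2.22, 1.55 and 3.02 CPM with S100A4, and 1.61, 1.87 and 1.64 CPM with both. The combined libraries lay below all controls, and the drop passed with the block (−0.67 ± 0.23, adjusted p = 0.022).

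**Figure D3:**
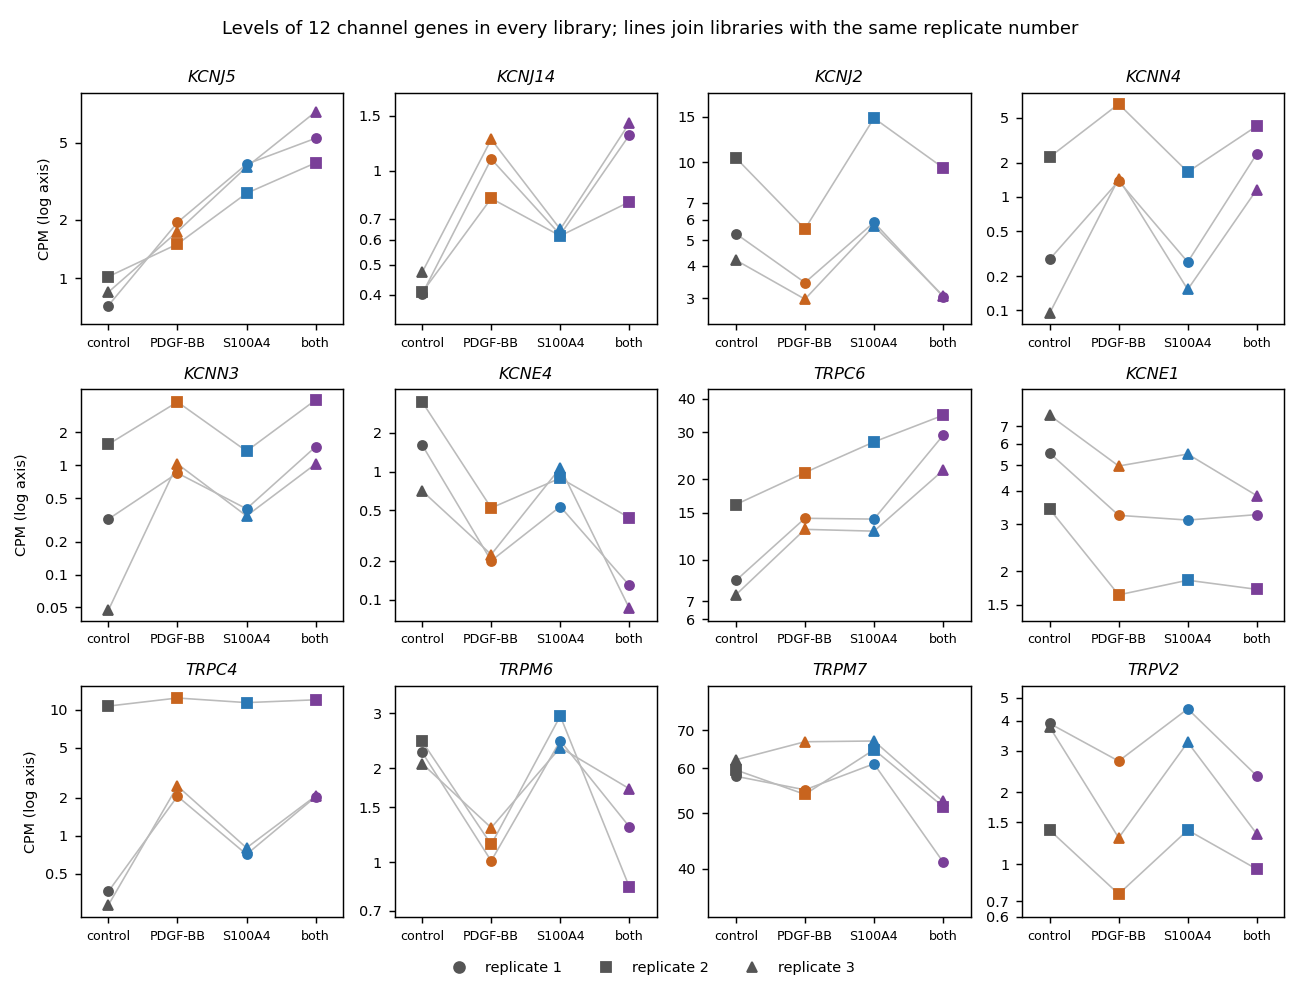
Level (CPM, log axis, with its own range in each panel) of 12 channel genes in each of the 12 libraries, where "both" stands for PDGF-BB+S100A4. Circles, squares and triangles are replicates 1, 2 and 3, and grey lines join libraries of the same number; KCNJ5 climbs from 0.724 to 1.02 CPM in control to 3.93 to 7.2 CPM with both, while the TRPC4 squares stay between 10.7 and 12.4 CPM.

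The 3 calcium-activated potassium channels open when intracellular calcium rises and so tie calcium signals to membrane voltage. KCNN4 (ENSSSCG00000003069; chromosome 6, 50580016 to 50593518), the intermediate-conductance channel, had 0.282, 2.24 and 0.0943 CPM in control (7, 66 and 2 counts), 1.38, 6.58 and 1.45 CPM with PDGF-BB (34, 202 and 45 counts), 0.267, 1.66 and 0.153 CPM with S100A4, and 2.39, 4.21 and 1.16 CPM with both. Replicate 2 was highest in every group, and in all 3 numbers the PDGF-BB library exceeded its control. With the block the rise was 3.59-fold with PDGF-BB (1.85 ± 0.34, adjusted p = 0.0005) and 3.13-fold with both (1.65 ± 0.36, adjusted p = 0.0015). On the groups alone, where number 2 enters the spread, the PDGF-BB value was 1.81 ± 1.15 (adjusted p = 0.37). Without replicate number 2 the blocked rise with PDGF-BB was 7.49-fold.

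KCNN3 (ENSSSCG00000006542; chromosome 4, 94913631 to 95112845), a small-conductance channel, showed the same order of libraries. It had 0.322, 1.56 and 0.0472 CPM in control, 0.85, 3.81 and 1.03 CPM with PDGF-BB, 0.4, 1.35 and 0.344 CPM with S100A4, and 1.48, 3.97 and 1.03 CPM with both. The blocked rise was 2.92-fold with PDGF-BB (1.54 ± 0.29, adjusted p = 0.00052) and 3.36-fold with both (1.75 ± 0.29, adjusted p = 0.00015), and neither passed on the groups alone. Without replicate number 2 the blocked PDGF-BB rise was 4.93-fold, with 8 and 1 counts in the control libraries left. KCNN3 and KCNN4 gave no call with S100A4. The RefSeq span of KCNN3 overlaps another gene, PMVK, and reads of the pair may not be separable.

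KCNMA1, the pore of the large-conductance channel that relaxes vascular muscle, did not pass in any comparison with control. It had 26.4, 31.1 and 38.8 CPM in control, 23.8, 34.2 and 38.9 CPM with PDGF-BB, 25.9, 32.4 and 36.1 CPM with S100A4, and 25.2, 32.4 and 34.3 CPM with both. The blocked change with PDGF-BB was 0.01 ± 0.06 (adjusted p = 0.95), and with both it was −0.06 ± 0.06 (adjusted p = 0.46). KCNMB1, the subunit that raises the calcium sensitivity of this channel in smooth muscle, had 0.282, 0.136 and 1.37 CPM in control, 0.202, 0.163 and 0.806 CPM with PDGF-BB, 0.222, 0.0773 and 0.84 CPM with S100A4, and 0.304, 0.199 and 0.819 CPM with both. Number 3 was the highest in each group, and KCNMB1 did not pass either. KCNMB4, a related subunit, had 0.483, 0.203 and 0.141 CPM in control, 0.85, 0.456 and 0.516 CPM with PDGF-BB, 0.623, 0.309 and 0.305 CPM with S100A4, and 0.783, 0.556 and 0.474 CPM with both. Each PDGF-BB and combined library lay above its control, and the rise passed with the block with PDGF-BB (1.13 ± 0.32, adjusted p = 0.0092) and with both (1.12 ± 0.33). Both calls were lost with DESeq2 in the block fit.

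Of the 10 voltage-gated potassium channel genes, edgeR called 0 on the groups alone in the 3 comparisons with control, where none had an unadjusted p under 0.05 and DESeq2 also called 0. Of all genes, 14.7% passed there with PDGF-BB, 0.563% with S100A4 and 22.0% with both. With the block, 2 of the 10 passed with PDGF-BB (background 48.8%), 0 with S100A4 (1 had an unadjusted p under 0.05; background 10.7%) and 3 with both (background 56.1%). KCNG1, which encodes a subunit that is silent on its own, had 1.01, 0.712 and 0.519 CPM in control, 1.9, 1.66 and 0.741 CPM with PDGF-BB, 1.07, 0.618 and 0.229 CPM with S100A4, and 2.35, 1.59 and 0.517 CPM with both. With PDGF-BB it was higher than control in each number. With both it was higher in numbers 1 and 2, while number 3 had 0.519 CPM in control and 0.517 CPM with both. It rose by 0.97 ± 0.24 with PDGF-BB (adjusted p = 0.0042) and by 0.99 ± 0.25 with both. KCNH2, the ERG channel, had 9.98, 2.95 and 7.92 CPM in control, 7.04, 1.86 and 7.06 CPM with PDGF-BB, 9.12, 2.28 and 6.61 CPM with S100A4, and 6.05, 1.75 and 5.13 CPM with both. All 3 numbers were lower with both than in control, and it fell with PDGF-BB (−0.40 ± 0.11, adjusted p = 0.0098) and with both (−0.70 ± 0.12, adjusted p = 0.00021). KCNS3, another silent subunit, had 3.22, 1.49 and 1.51 CPM in control, 2.02, 1.27 and 1.23 CPM with PDGF-BB, 2.36, 1.16 and 1.07 CPM with S100A4, and 1.7, 1.31 and 1.03 CPM with both. It fell with both (−0.59 ± 0.19, adjusted p = 0.015), a call lost with DESeq2 in the block fit. KCNQ5, of the family that carries the M-type current, was chosen for mention after its values were seen: it had 21.7 to 32.8 CPM in control and a blocked PDGF-BB change of 0.07 ± 0.06, which did not pass.

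Of the two-pore-domain channels, which carry background potassium current, KCNK6 (ENSSSCG00000038902; chromosome 6, 47237665 to 47249178) fell with both proteins. It had 1.57, 1.22 and 2.12 CPM in control, 0.85, 0.978 and 0.967 CPM with PDGF-BB, 1.11, 1.58 and 1.34 CPM with S100A4, and 0.87, 0.953 and 0.776 CPM with both. The PDGF-BB and combined libraries lay below all controls, and the drop was 1.88-fold with both (−0.91 ± 0.24, adjusted p = 0.023) and passed only with the block with PDGF-BB (−0.78 ± 0.23, adjusted p = 0.012). The call with both was lost on the groups alone without control replicate 1 or 3 or combined replicate 1 or 3 (adjusted p 0.056 to 0.09), and with the block without replicate number 3 (−0.6, adjusted p = 0.13). On the groups alone it was also lost with only the groups compared (adjusted p = 0.093) and without replicate number 1 (0.21) or 3 (0.3).

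Accessory subunits do not conduct by themselves but set how potassium channels open and traffic. KCNE4 (ENSSSCG00000038149; chromosome 15, 124910708 to 124915787), whose protein inhibits several voltage-gated potassium channels, showed the deepest drop of all channel genes with PDGF-BB and with both proteins. It had 1.61, 3.49 and 0.707 CPM in control (40, 103 and 15 counts), 0.202, 0.521 and 0.226 CPM with PDGF-BB (5, 16 and 7 counts), 0.534, 0.889 and 1.07 CPM with S100A4, and 0.13, 0.437 and 0.0862 CPM with both (3, 11 and 2 counts). Every library with PDGF-BB, alone or combined, lay below every control. The level was 6.03-fold lower with PDGF-BB (−2.59 ± 0.69, adjusted p = 0.032) and 8.66-fold lower with both (−3.12 ± 0.73, adjusted p = 0.013), and with the block adjusted p was 0.00012 and 5.1e-05.

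With S100A4 alone KCNE4 passed only with the block (−1.17 ± 0.34, adjusted p = 0.044), and the log2 ratios within the numbers were −1.43, −1.86 and 0.53. That call was lost without replicate number 1 (adjusted p = 0.28) or 2 (adjusted p = 0.56). On the groups alone the PDGF-BB call was lost without control replicate 1 or 2 or PDGF-BB replicate 1 or 3 (−1.85 to −2.71, adjusted p 0.064 to 0.11). The combined call was lost without combined replicate 1 (−2.86, adjusted p = 0.054). With only the groups compared, the PDGF-BB call (adjusted p = 0.083) and the combined call (0.056) were lost too. Without replicate number 1 or 3 the PDGF-BB call was lost (adjusted p = 0.31 and 0.12), as was the combined call (0.19 and 0.068).

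KCNE1, the partner of the slow delayed rectifier, was lower with each treatment in the block fit. It had 5.55, 3.42 and 7.69 CPM in control, 3.24, 1.63 and 4.96 CPM with PDGF-BB, 3.11, 1.85 and 5.5 CPM with S100A4, and 3.26, 1.71 and 3.84 CPM with both. Each treated library lay below the control of its number, although the groups overlapped. The blocked changes were −0.79 ± 0.13 with PDGF-BB (adjusted p = 0.00018), −0.69 ± 0.13 with S100A4 (0.0032) and −0.93 ± 0.14 with both (5.1e-05), and none passed on the groups alone. The S100A4 call was lost without replicate number 1 (adjusted p = 0.064).

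KCNIP3, a calcium-binding protein that joins voltage-gated potassium channels, had 0.483, 0.203 and 0.519 CPM in control, 0.121, 0.0978 and 0.29 CPM with PDGF-BB, 0.534, 0.155 and 0.458 CPM with S100A4, and 0.348, 0.0794 and 0.56 CPM with both. The PDGF-BB libraries lay below their controls, and the drop passed with the block (−1.20 ± 0.42, adjusted p = 0.03), a call lost with DESeq2 in that fit. KCNAB3, one of the cytoplasmic beta subunits, had 1.97, 1.42 and 1.18 CPM in control, 0.81, 1.34 and 1.39 CPM with PDGF-BB, 1.11, 0.734 and 1.37 CPM with S100A4, and 0.652, 0.794 and 0.862 CPM with both. The combined libraries lay below all controls (−1.0 ± 0.30, adjusted p = 0.012 with the block and 0.051 on the groups alone). KCNAB1, another beta subunit, had smaller blocked drops with PDGF-BB (−0.36) and both (−0.41).

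For the 11 calcium channel genes edgeR called 0 on the groups alone in the 3 comparisons with control (background 14.7%, 0.563% and 22.0% with PDGF-BB, S100A4 and both), where 1 had an unadjusted p under 0.05 and DESeq2 also called 0. With the block 4 of the 11 passed with PDGF-BB (background 48.8%), 1 with S100A4 (background 10.7%) and 4 with both (background 56.1%). The pore gene CACNA1H fell by 0.25 with PDGF-BB and by 0.23 with both on the log2 scale, which held for PDGF-BB without each replicate number. CACNA1G, the other T-type pore here, had 2.45, 1.12 and 1.7 CPM in control, 2.31, 0.717 and 1.39 CPM with PDGF-BB, 2.49, 0.966 and 1.26 CPM with S100A4, and 1.83, 0.715 and 1.12 CPM with both. It was lower in each number with both than in control (−0.53 ± 0.19, adjusted p = 0.026 with the block, a call lost with DESeq2 in that fit). Among the auxiliary subunits, CACNB3 had 31.9, 22.2 and 33.4 CPM in control, 23.7, 19.8 and 27.9 CPM with PDGF-BB, 32.8, 30.1 and 38.7 CPM with S100A4 and 30.2, 25.3 and 33.9 CPM with both. It was lower with PDGF-BB in the block fit (−0.29, adjusted p = 0.0028), higher with S100A4 (0.23 ± 0.07, adjusted p = 0.038) and higher with both proteins than with PDGF-BB (0.33 ± 0.07, adjusted p = 0.0073). Without a replicate number, the CACNB3 call against PDGF-BB was lost for number 1 (adjusted p = 0.062) or 3 (0.098), the S100A4 call for number 2 (0.29) or 3 (0.21), and the PDGF-BB call for number 1 (0.061). The S100A4 call was also lost with upper-quartile scaling and with DESeq2 in the block fit. CACNG4, of the family of transmembrane gamma subunits, had 0.362, 0.644 and 0.141 CPM in control, 0.729, 1.17 and 0.484 CPM with PDGF-BB, 0.534, 0.966 and 0.267 CPM with S100A4, and 0.609, 0.397 and 0.215 CPM with both. It rose with PDGF-BB with the block (1.04 ± 0.32, adjusted p = 0.015), a call lost with DESeq2 in that fit, and had no call with both. CACNA2D1 had no call against control with all libraries, and without replicate number 2 the block fit called it lower with both proteins than in control (−0.22 ± 0.05, adjusted p = 0.0023) and than with PDGF-BB (−0.26 ± 0.05, adjusted p = 0.0041). The L-type pore gene CACNA1C was not analysed here.

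TRPC channels open downstream of phospholipase C. TRPC6 (ENSSSCG00000024022; chromosome 9, 32332768 to 32439184), a channel that diacylglycerol opens, had 8.37, 16.1 and 7.4 CPM in control, 14.3, 21.2 and 13.0 CPM with PDGF-BB, 14.2, 27.6 and 12.8 CPM with S100A4, and 29.2, 34.7 and 21.6 CPM with both. In each number every treated library was above its control, and the combined library was the highest. All combined libraries lay above all controls, and replicate 2 was the highest in each group.

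The TRPC6 rise with both proteins was 2.68-fold (1.42 ± 0.38, adjusted p = 0.023; 1.45 ± 0.12 and 1.8e-07 with the block). On the groups alone this call was lost without control replicate 1 or 3 or combined replicate 1 or 2 (1.22 to 1.4, adjusted p 0.06 to 0.09). With the block TRPC6 also rose 1.54-fold with PDGF-BB (0.63 ± 0.12, adjusted p = 0.00077) and 1.70-fold with S100A4 (0.77 ± 0.12, adjusted p = 0.00088), whereas on the groups alone the S100A4 value was 0.77 ± 0.38 (adjusted p = 0.9). Both proteins gave more than PDGF-BB alone with the block (0.83 ± 0.11, adjusted p = 0.00029). These blocked calls held without each replicate number.

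TRPC1, a widely expressed member, had 6.12, 3.26 and 7.21 CPM in control, 5.34, 2.09 and 5.84 CPM with PDGF-BB, 6.72, 3.36 and 5.96 CPM with S100A4, and 4.87, 2.82 and 4.52 CPM with both. It fell with both with the block (−0.42 ± 0.14, adjusted p = 0.021) and had no other call against control.

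TRPC4 (ENSSSCG00000009362; chromosome 11, 13300288 to 13519001) was singled out after its values were seen. It had 0.362, 10.7 and 0.283 CPM in control (9, 317 and 6 counts), 2.06, 12.4 and 2.48 CPM with PDGF-BB, 0.712, 11.4 and 0.802 CPM with S100A4, and 2.04, 12 and 2.07 CPM with both. Without number 2 its control level thus rests on 9 and 6 counts. The log2 ratios to control with PDGF-BB were 2.23 and 2.75 in numbers 1 and 3 and 0.21 in number 2, which started high. It did not pass with PDGF-BB with the block (0.81 ± 0.33, adjusted p = 0.059), and without replicate number 2 the value was 2.80 ± 0.32 (6.98-fold, adjusted p = 3.4e-06). With both the block fit called it without number 2 as well (2.64 ± 0.33, adjusted p = 7e-06) and not with all libraries. Its annotated span overlaps UFM1.

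TRPM6 and TRPM7 are channels fused to a protein kinase that carry magnesium and calcium. TRPM6 (ENSSSCG00000005269; chromosome 1, 227809511 to 228037923) had 2.25, 2.44 and 2.07 CPM in control, 1.01, 1.14 and 1.29 CPM with PDGF-BB, 2.45, 2.94 and 2.33 CPM with S100A4, and 1.3, 0.834 and 1.72 CPM with both. All 6 libraries that received PDGF-BB lay below all 6 that did not. It fell 1.96-fold with PDGF-BB (−0.97 ± 0.25, adjusted p = 0.027) and 1.75-fold with both (−0.81 ± 0.25, adjusted p = 0.043). Leaving out any one control or PDGF-BB library lost the PDGF-BB call on the groups alone (−0.89 to −1.06, adjusted p 0.051 to 0.096), while the block call held without each number. Leaving out number 1 (adjusted p = 0.37) or 3 (0.11) also lost it on the groups alone. The call with both on the groups alone was lost without any one library other than combined replicate 3 (adjusted p 0.054 to 0.1), and with the block without number 2 (−0.51, adjusted p = 0.087). On the groups alone that call was also lost without a filter (adjusted p = 0.062), with only the groups compared (0.14) and without number 1 (0.33), 2 (0.16) or 3 (0.074).

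TRPM7 (ENSSSCG00000004636; chromosome 1, 121146093 to 121250227) had 58.1, 59.6 and 62.1 CPM in control, 55, 54 and 66.8 CPM with PDGF-BB, 61.1, 64.7 and 67.0 CPM with S100A4, and 41.1, 51.4 and 52.5 CPM with both. The combined group lay below each of the other 3 groups without overlap. It was lower with both proteins than with S100A4 (−0.41 ± 0.11, adjusted p = 0.03; −0.41 ± 0.07 and 0.00013 with the block), a call lost on the groups alone without any one S100A4 library or combined replicate 1 (adjusted p 0.063 to 0.098). That call was also lost there with only the groups compared (adjusted p = 0.083) and without number 1 (0.27), 2 (0.074) or 3 (0.11). Against control TRPM7 passed with the block (−0.31 ± 0.07, adjusted p = 0.00099; 0.069 on the groups alone), and against PDGF-BB likewise (−0.28 ± 0.07, adjusted p = 0.018), a call lost without number 1 (adjusted p = 0.23) or 3 (0.21). TRPM4, a channel that calcium opens and that conducts monovalent cations, fell by 0.22 with PDGF-BB and by 0.29 with both on the log2 scale in the block fit.

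Both TRPV genes, of a family that heat, stretch or lipids open, were lower with PDGF-BB with the block. TRPV2 had 3.9, 1.39 and 3.77 CPM in control, 2.71, 0.749 and 1.29 CPM with PDGF-BB, 4.49, 1.39 and 3.25 CPM with S100A4, and 2.35, 0.953 and 1.34 CPM with both. It fell with PDGF-BB (−0.96 ± 0.20, adjusted p = 0.0012) and with both (−0.95 ± 0.21, adjusted p = 0.0013). TRPV4 had 3.22, 0.203 and 0.707 CPM in control, 2.02, 0.196 and 0.355 CPM with PDGF-BB, 3.11, 0.232 and 0.687 CPM with S100A4, and 2.17, 0.318 and 0.388 CPM with both. Number 1 was the highest in each group, and the drop passed with PDGF-BB (−0.67 ± 0.24, adjusted p = 0.03), a call lost with DESeq2 in the block fit. With both it did not pass with all libraries, and did in the block fit without number 2 (−0.62 ± 0.25, adjusted p = 0.048). TRPC4AP, the protein that is no channel, had a log2 change of −0.11 ± 0.04 with PDGF-BB, which passed only with the block (adjusted p = 0.036) and was lost there with DESeq2 or without any one replicate number (adjusted p 0.1 to 0.23).

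S100A4 added to PDGF-BB was compared with S100A4 alone in the same fit. Adding it to PDGF-BB gave 1 higher channel gene and none lower on the groups alone (1.85%, background 0.273%; 2 genes had an unadjusted p under 0.05, and DESeq2 called 1), and 3 higher and 1 lower with the block (7.41%, background 7.14%). The one on the groups alone was KCNJ5, and the block added TRPC6 and CACNB3 as higher and TRPM7 as lower. The blocked calls for KCNJ5 and TRPC6 held without each replicate number, and those for CACNB3 and TRPM7 were lost without number 1 or 3. KCNJ5 changed by 1.95 ± 0.22 with S100A4 in the absence of PDGF-BB and by 1.65 ± 0.18 in its presence, and TRPC6 by 0.77 ± 0.12 and 0.83 ± 0.11. The differences between the effects were within their error, with interaction terms of −0.29 ± 0.29 for KCNJ5 and 0.06 ± 0.17 for TRPC6.

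For the interaction, which is the S100A4 effect with PDGF-BB minus that without, edgeR called 0 channel genes on the groups alone (background 0.0%) and 0 with the block (background 0.113%). An unadjusted p under 0.05 was found for 1 gene on the groups alone and for 5 with the block. DESeq2 called 0 on the groups alone and 1, TRPM7, with the block. TRPM7 had an interaction of −0.38 ± 0.09 with the block (adjusted p = 0.16). CACNG4 had −1.58 ± 0.48 (adjusted p = 0.31), since S100A4 moved it by 0.60 without PDGF-BB and by −0.98 with it. A difference between the S100A4 effects was thus not shown for any channel gene by edgeR with all 12 libraries, and without replicate number 2 the block fit called 2, CACNA2D1 and TRPM7.

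**Figure D4:**
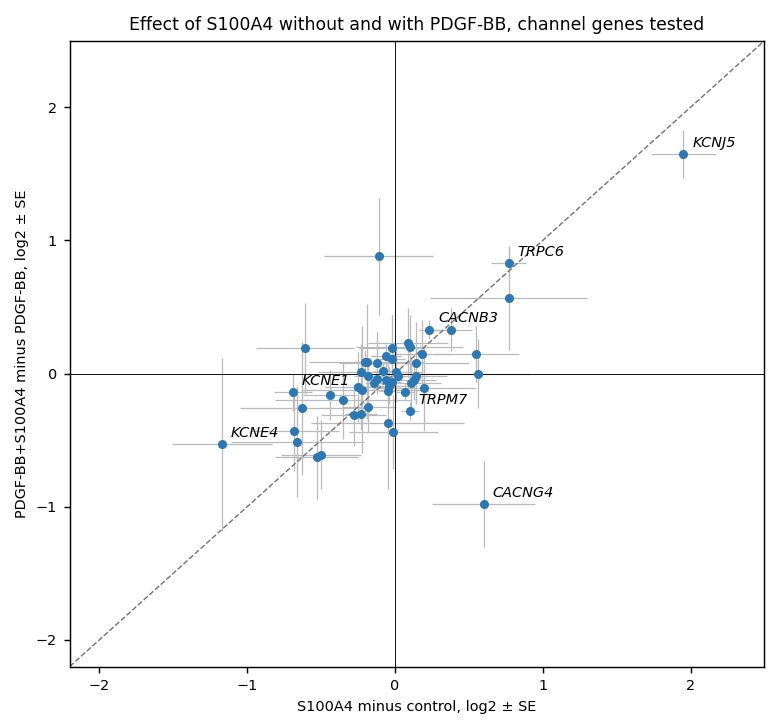
Effect of S100A4 on channel genes in the block fit, as log2 change ± SE without PDGF-BB (S100A4 minus control, horizontal) and with it (PDGF-BB+S100A4 minus PDGF-BB, vertical). The dashed line marks equal effects; KCNJ5 (1.95 and 1.65) and TRPC6 (0.77 and 0.83) lie near it at the upper right, and CACNG4 lies farthest below it.

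PDGF-BB added to S100A4 gave none higher and 2 lower channel genes on the groups alone, TRPM6 and TRPM7, against 9.45% higher and 5.51% lower of all genes, with an unadjusted p under 0.05 for 2 higher and 5 lower and 3 lower by DESeq2. With the block 8 were higher and 11 lower (35.2%, background 47.8%). Among the higher were KCNN4 (1.99 ± 0.39, adjusted p = 0.0007) and KCNN3 (1.64 ± 0.29, adjusted p = 0.00035), and among the lower KCNE4 (−1.95 ± 0.54, adjusted p = 0.0088) and KCNJ2 (−0.77 ± 0.14, adjusted p = 0.00056).

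A list of 70 genes for calcium handling and signalling beyond these channels had 59 tested members. It held release channels, pumps, exchangers, store-operated entry, calcineurin, phospholipase C, calmodulin with its kinases, and mitochondrial calcium uptake. Channels with other symbols, such as PIEZO1 and ANO1, and some further genes were also on it. With PDGF-BB 5 were higher and 5 lower on the groups alone (16.9%, background 14.7%), and 12 and 19 with the block (52.5%, background 48.8%). By direction, 20.3% were higher and 32.2% lower with the block, against 24.3% and 24.5% of all genes. With both proteins 7 were higher and 5 lower (20.3%, background 22.0%), and 14 and 25 with the block (66.1%, background 56.1%). By direction, 23.7% were higher and 42.4% lower with the block, against 27.5% and 28.6% of all genes. With S100A4 edgeR called 0 on the groups alone (3 had an unadjusted p under 0.05, and DESeq2 called 0; background 0.563%), and 5 higher and 3 lower with the block (13.6%, background 10.7%). The list's median log2 changes on the groups alone were −0.05, −0.10 and −0.04 for PDGF-BB, both and S100A4, against −0.02, −0.03 and −0.02 over all genes.

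RCAN1, a feedback inhibitor of calcineurin, rose most clearly, by 1.88 ± 0.14 with PDGF-BB (adjusted p = 6.3e-05) and 2.03 ± 0.14 with both (1.8e-05). ITPR3, a receptor that releases stored calcium on inositol trisphosphate, rose by 1.32 ± 0.13 with PDGF-BB (adjusted p = 0.00022) and 1.48 ± 0.13 with both (6.9e-05). HOMER1, a scaffold protein, rose with PDGF-BB (1.34 ± 0.25, adjusted p = 0.0057), and SLC8A3, a sodium-calcium exchanger, fell (−0.69 ± 0.14, adjusted p = 0.0075). With both, NFATC3, a transcription factor that calcineurin activates, fell (−0.69 ± 0.10, adjusted p = 0.0012), as did PLCG1, a phospholipase C (−0.61 ± 0.10, adjusted p = 0.0017). ORAI1, the pore of store-operated calcium entry, had a log2 change with S100A4 of 0.40 ± 0.11 on the groups alone (adjusted p = 0.27) and passed with the block (0.40 ± 0.08, adjusted p = 0.0078). With S100A4 the next of the list were RCAN1 (0.37 ± 0.13), PLCG1 (−0.24 ± 0.10) and ITPR3 (0.28 ± 0.13), which passed with the block (adjusted p = 0.0024, 0.0056 and 0.028) and not on the groups alone (adjusted p = 0.52, 0.67 and 0.85).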

How the data were processed

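The deposited table holds whole-number counts per gene, not normalized by the authors. Per the submitters' processing notes, CASAVA 1.8.2, STAR 2.4, featureCounts 1.4.6 and the build Sscrofa11.1 were used. Per the labels' protocols, the HiSeq4000 run of the TruSeq libraries gave single-end reads, each 100 nt long. Whether counting used strand or multiply mapped reads is not given in the sources used here, so counts of overlapping or near-identical genes are uncertain. Spans of 16 of the 55 channel genes overlap another RefSeq gene.

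Symbols were matched by Ensembl identifier for 14572 of 21153 genes, and gene spans were taken from RefSeq (Sscrofa11.1) by symbol. No sequence was used. The channel genes, gene lists and tests were chosen with earlier results of these data known. Genes named are those that passed in any comparison on the groups alone, those with the largest changes that passed against control with the block (a log2 change of at least 0.5, up to 25 genes in all), and vascular channels always named (KCNMA1, KCNMB1, KCNJ8, TRPC1). From the calcium handling list, up to 4 genes per comparison with the smallest adjusted p are named. Others named were chosen after their values were seen.

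Counts were filtered by filterByExpr (minimum count of 10), scaled by TMM and fitted in edgeR 4.0.16 (R 4.3.3, limma 3.58.1) with 4 group means over all 12 libraries. Tests were two-sided, and SE is the log2 change over the root of F. The fit was checked on simulated counts. No 2 replicates were alike within sampling noise (chi-square per gene of 22.0 to 159).

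As a check of pairing, each library's deviation from its group mean was correlated with those of other groups. Same-numbered libraries (18 pairs) gave r = 0.746 to 0.908, and differently numbered ones (36 pairs) −0.676 to 0.136. On this evidence in the data, since no label states it, numbers were used as pairs. The spread between replicates (biological coefficient of variation) was 27.2% on the groups alone and 5.14% with the block. No label says whether libraries of a number come from one animal, so p-values speak only of the spread among these libraries, which may be technical. Ratios within a number used CPM plus 0.1. Other alternatives were DESeq2 1.42.0, other scalings and filters, only the groups compared, and leaving out libraries. Some channel genes are counted in the totals but are not reported here by name or drawn.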

Additional observations from a re-analysis of the deposited data

How the results depend on the processing

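Groups of 3 libraries, low counts of several channel genes and the spread between replicate numbers limit these results. On the groups alone, the 4, 1, 6, 1 and 2 channel genes called with PDGF-BB, S100A4, both, both against PDGF-BB and both against S100A4 numbered 24, 5, 28, 4 and 19 with the replicate block, and all calls on the groups alone kept their direction there. The stricter filter (mean CPM of at least 5), which tests fewer channel genes, gave 0, 0, 1 and 0 for the first 4. Fitting only the groups compared gave 2, 0, 3, 0 and 0. Leaving out libraries gave 0 to 8, 0 to 1, 1 to 11, 0 to 1 and 0 to 7. With the block and without replicate number 1, 2 or 3 the counts were 15, 20 and 17 with PDGF-BB, 3, 3 and 4 with S100A4, 18, 25 and 18 with both, 2, 5 and 2 for both against PDGF-BB, and 13, 21 and 13 for both against S100A4.

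Chosen after seeing the data, the block with DESeq2, RLE or upper-quartile scaling gave 20, 25 and 26 with PDGF-BB, 3, 6 and 4 with S100A4, 24, 29 and 31 with both, 4 each for both against PDGF-BB, and 18, 21 and 22 for both against S100A4. For the interaction, with 0 calls on the groups alone, the block gave 2 without replicate number 2 and 1 with DESeq2. Of the channel genes called with both proteins on the groups alone, 50.0% were higher, and 33.3% with upper-quartile scaling or DESeq2. With PDGF-BB the share was 50.0%, and 40.0% with upper-quartile scaling. With the block it was 60.0% and 50.0% with S100A4. Scaling moved the median of all genes by at most 0.073.

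The calcium handling list had 10 calls with PDGF-BB, 0 with S100A4 and 12 with both. The block gave 31, 8 and 39. Without a filter or with only the groups compared, the PDGF-BB count was 6. Leaving out libraries gave 2 to 9 and, with both, 3 to 15. The block without number 1, 2 or 3 gave 23, 28 and 24, then 5, 6 and 1, then 26, 34 and 27, and with DESeq2, RLE or upper-quartile scaling 27, 30 and 34, then 8, 8 and 10, then 35, 38 and 39. On the groups alone, direction reversed for KCNH2 with PDGF-BB (−0.75 to 0.02 over the libraries left out, highest without PDGF-BB replicate 2), TRPV4 with PDGF-BB (−2.3 to 0.92, highest without control replicate 1) and KCNJ2 with both (−1.12 to 0.13, highest without control replicate 2), none past the threshold. The cause was not tested.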

Other observations

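Of the 127 rows with a channel symbol, 72 stayed under the minimum of 10 counts in 3 libraries, and 23 of them had 0 counts in all 12. Among them the two-pore-domain channels KCNK3 and KCNK2 had 0 to 6 and 0 to 1 counts per library, KCNQ1, the partner of KCNE1, had 0 to 4, KCNA2 had 0 to 5, TRPV1, the capsaicin receptor, had 0 to 1 and TRPC5 had 0. The highest count in any of the 72 was 19. KCNK9, a two-pore-domain channel gene that met the minimum but not edgeR's filter, had 4, 3 and 1 counts in control, 10, 26 and 7 with PDGF-BB, 2, 5 and 0 with S100A4 and 6, 27 and 3 with both. In a fit with the filter of 10 counts in 3 libraries its change with PDGF-BB was 2.18 ± 0.99 (adjusted p = 0.19 in edgeR's quasi-likelihood test), which did not pass.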
